A study of Mus musculus with 8 samples.

Results

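The genes described here are induced by ERK signaling and, in most cases, feed back on it: the phosphatases Dusp6, Dusp4, Dusp5 and Dusp2, the receptor signaling inhibitors Spry1, Spry2, Spred1 and Spred2, the transcription factor Etv5 and the pleckstrin homology-like protein Phlda1. They were chosen by name as transcriptional output of the RAS-ERK pathway downstream of Gab2, and not by their values. Earlier results of these data were known when the list was made. Of these 10 genes, 9 were measured among 13305 genes, and Dusp4 was not analysed here. RNA of whole bone marrow (BM) was sequenced as 1 library per mouse from 8 mice (AML WT, n = 3; AML HET, n = 2; AML KO, n = 3), all on the C57BL/6N strain, to compare leukemic marrow with 2, 1 and 0 functional Gab2 alleles (Gab2+/+, Gab2+/- and Gab2-/-). All 8 mice carried Mx1-Cre, Dnmt3a+/- and Flt3ITD/ITD, so every group, AML WT included, had the leukemia-driving alleles and no healthy marrow is compared here. Mx1-Cre is driven by an interferon-inducible promoter, which was active in this colony without an inducer, and the Gab2 knockout allele carries a neomycin cassette in place of a part of its exons. The age of the sequenced mice is not given in the sources used here.

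Growth factor receptors such as Flt3 activate RAS, which passes the signal through RAF and MEK to the kinase ERK. Gab2 is a docking protein that receptor complexes phosphorylate and that recruits the phosphatase Shp2 and other partners, by which it amplifies this signal. Active ERK induces transcription of its own inhibitors: DUSP phosphatases remove the activating phosphates from ERK and related kinases, and Sprouty and SPRED proteins act further upstream, between the receptor and RAF. The mRNA levels of these genes are widely used as a readout of ERK output, since they fall when the pathway is blocked.

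Libraries held 28009258 to 39266815 counts on genes. Of all genes, 278 (2.09%) differed between AML KO and AML WT mice at an adjusted p under 0.05 (edgeR quasi-likelihood test, Benjamini-Hochberg over all genes), 235 higher and 43 lower in AML KO. Gab2 had 93.9, 68.5 and 61.6 CPM (counts scaled to a common library size) in AML WT mice 1 to 3, 55.8 and 50.8 CPM in the AML HET mice, and 35.0, 47.2 and 40.2 CPM in the AML KO mice. The 3 groups did not overlap, yet reads were still counted on the gene in AML KO mice, and counts per gene do not show from which exons they came. The cell mixture of the marrow differed between genotypes: the summed levels of 6 of 11 marker lists were higher in every AML KO than in every AML WT mouse, and the other 5 overlapped. Erythroid markers (14 measured of 15) added up to 198 to 264 CPM in AML WT, 388 to 1132 CPM in AML HET and 752 to 2282 CPM in AML KO mice, and neutrophil markers (12 of 12) to 1289 to 4693 CPM, 5404 to 6083 CPM and 10469 to 17161 CPM. Megakaryocyte and platelet markers (13 of 13) ranged from 248 to 307 CPM in AML WT and from 540 to 764 CPM in AML KO mice, and mast cell and basophil markers (5 of 6) from 53.8 to 71.4 CPM and from 187 to 316 CPM. Primary granule markers (6 of 6) ranged from 5377 to 6017 CPM in AML WT and from 7027 to 8368 CPM in AML KO mice, and stem and progenitor markers (9 of 9) from 621 to 657 CPM and from 747 to 916 CPM. The single stem and progenitor genes did not share a direction. Their AML KO minus AML WT differences were positive for 7 and negative for 2, from -1.28 to 1.76 on the log2 scale. Among the lists with overlap, monocyte and macrophage markers (12 of 12) were at 3327 to 3762 CPM in AML WT and 2651 to 3508 CPM in AML KO mice. In such bulk samples, fewer cells of a type and less RNA per cell cannot be told apart, and the part of the cell mixture in the values below was not tested.

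Promoter sequence is shown for the 3 feedback genes whose values were lowest in AML KO relative to AML WT mice, Spred1, Spred2 and Etv5, and for Dusp6, the phosphatase most specific for ERK. The sequences are from RefSeq (GRCm38.p6) and read 5′ to 3′ on the strand of the gene, up to the base before the RefSeq start or, for Spred2 and Etv5, before the first base that GENCODE assigns to the gene. Capitals mark the GC box (GGGCGG or its reverse CCGCCC, the site of Sp1 family factors) and the 5-base ETS core (GGAAG or CTTCC). The Spred1 sequence lies at chr2:117120821-117121070 on the plus strand, that of Spred2 at chr11:19924192-19924374 (plus), that of Etv5 at chr16:22439720-22439820 (minus) and that of Dusp6 at chr10:99262981-99263230 (plus).
Spred1: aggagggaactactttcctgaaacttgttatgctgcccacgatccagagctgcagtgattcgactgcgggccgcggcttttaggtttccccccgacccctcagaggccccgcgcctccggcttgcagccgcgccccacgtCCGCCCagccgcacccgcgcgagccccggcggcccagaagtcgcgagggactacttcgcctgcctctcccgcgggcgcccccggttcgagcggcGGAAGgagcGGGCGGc
Spred2: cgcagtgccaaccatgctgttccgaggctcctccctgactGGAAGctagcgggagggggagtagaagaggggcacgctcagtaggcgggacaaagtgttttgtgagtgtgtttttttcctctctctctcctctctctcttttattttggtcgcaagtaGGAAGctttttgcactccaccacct
Etv5: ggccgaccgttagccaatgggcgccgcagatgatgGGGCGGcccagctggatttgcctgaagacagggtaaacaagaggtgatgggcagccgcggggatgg
Dusp6: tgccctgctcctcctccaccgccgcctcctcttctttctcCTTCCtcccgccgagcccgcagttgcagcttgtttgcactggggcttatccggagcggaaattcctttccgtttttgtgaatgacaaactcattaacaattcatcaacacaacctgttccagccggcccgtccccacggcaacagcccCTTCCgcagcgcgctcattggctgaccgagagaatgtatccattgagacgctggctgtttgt

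RefSeq windows of 250 bases before the start were found for 8 of the 10 genes (9 windows, since Etv5 has 2 starts), and Dusp4 and Phlda1 had no entry. Their GC content ran from 56.0% to 71.2%, above the median of 52.4% over all promoters of the same length. On both strands, the GC box was found in 6 of the 9 windows, against 32.7% of 32851 promoters, and the ETS core in 6 of 9, against 64.1%. These counts are for the full 250 bases, and the sequences shown above are shorter for Spred2 (183 bases) and Etv5 (101 bases). The GC box of Spred2 and the ETS cores of Etv5 lie outside the sequence shown. The longer ETS motif CCGGAA, which shares the letters GGAA with the ETS core so that matches of both can overlap, was held by none of the 9 windows, against 12.0% of all promoters. Fixed letter strings for further factors at the end of RAS, cAMP or cytokine signaling were not found in any of the 9 either. They were TGAATGAA for CIC (1.08% of all promoters), TGACTCA for AP-1 (4.46%), TGACGTCA for the CRE (1.55%) and TTCNNNGAA for STAT5 (7.02%). Other forms of these sites, and the sites of other factors such as Srf, were not searched, so their absence is not shown. The counts above describe the letters within short windows and not binding.

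Levels of different genes were set side by side per kilobase of exons (RPKM). The nuclear phosphatase gene Dusp5 had the highest mean over the 8 mice, 11.8 RPKM, followed by Dusp2 at 7.78 RPKM and Dusp6 at 5.94 RPKM. Spred1 (3.01 RPKM) and Spred2 (2.51 RPKM) came next, then Spry2 (1.75 RPKM) and Spry1 (1.17 RPKM), with Etv5 (0.715 RPKM) and Phlda1 (0.320 RPKM) last. The phosphatases were thus the most abundant transcripts and the SPRED genes stood above the Sprouty genes. The ranges of every 2 neighbours in this order overlapped across mice. Within a mouse the order was steadier: Dusp5 exceeded Dusp2 in 8 of 8 mice, Dusp6 exceeded Spred1 in 8, Spred2 exceeded Spry2 in 8 and Spry2 exceeded Spry1 in 8. Dusp2 exceeded Dusp6 in 6 of 8 mice and Etv5 exceeded Phlda1 in 6, while Spred1 was above Spred2, and Spry1 above Etv5, in 7 of 8.

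**Figure D1:**
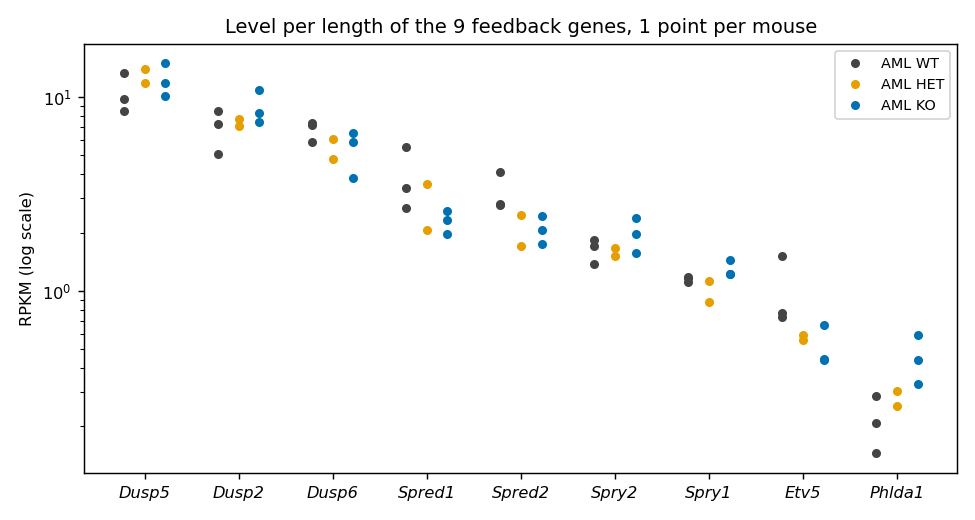
Level of the 9 measured feedback genes in RPKM (log axis), 1 point per mouse and 1 color per genotype, ordered by the mean over 8 mice. The 3 phosphatase genes lie highest, with Dusp5 at a mean of 11.8 RPKM, and Phlda1 lowest at 0.320 RPKM, and the points of neighbouring genes overlap.

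None of the 9 genes passed the test between AML KO and AML WT mice, against 2.09% of all genes. Spred1, Spred2 and Etv5 had lower values in all 3 AML KO than in all 3 AML WT mice, with 0.593, 0.643 and 0.510 times the AML WT level, and Phlda1 and Spry1 had higher values in all 3, with 2.15 and 1.12 times that level. The phosphatase genes and Spry2 overlapped between the groups. Before adjustment, p was under 0.05 for 4 genes, Spred1, Spred2 and Etv5 on the lower and Phlda1 on the higher side, where 17.7% of all genes lay under that limit (7.88% lower and 9.77% higher). The 5 genes without overlap of the groups compare with 22.1% of all genes (9.83% lower and 12.3% higher). The median log2 difference over the 9 genes was 0.17, against -0.02 over all genes, with 5 positive and 4 negative values, so the genes did not share a direction.

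**Figure D2:**
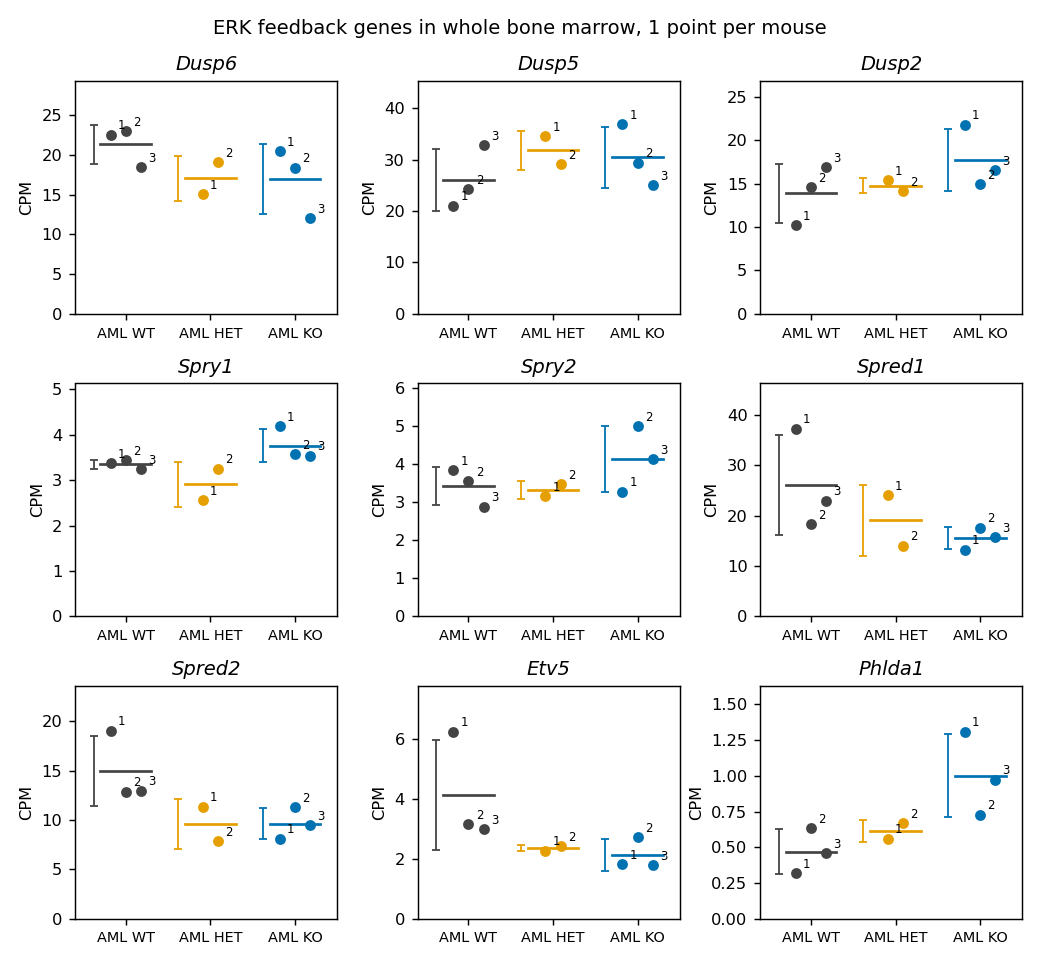
Level in CPM (from 0) of each of the 9 genes in every mouse of the 3 genotypes, 1 numbered point per mouse, with the mean as a line and the SD as a bar beside it. The groups are apart between AML WT and AML KO for Spry1, Spred1, Spred2, Etv5 and Phlda1, and AML WT mouse 1 is the highest point for Spred1, Spred2 and Etv5.

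Dusp6 (chr10:99263231-99267489, GRCm38) encodes the cytoplasmic phosphatase that acts on ERK itself. It was measured at 22.5, 23.0 and 18.5 CPM in AML WT mice 1 to 3, at 15.0 and 19.0 CPM in the AML HET mice and at 20.4, 18.4 and 12.0 CPM in the AML KO mice. The groups overlapped, since AML KO mouse 1 was above AML WT mouse 3, and the lowest value was that of AML KO mouse 3. AML KO minus AML WT was -0.33 ± 0.21 on the log2 scale (SE; 95% interval -0.80 to 0.14), with an adjusted p of 0.398 (edgeR quasi-likelihood test, Benjamini-Hochberg). Without AML KO mouse 3 the difference was -0.13 and without AML KO mouse 1 it was -0.49. An exact two-sided permutation test of the 3 against 3 mice gave p = 0.2, where 0.1 is the smallest value this design allows.

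Dusp5 (chr19:53529109-53542431) encodes a phosphatase that binds ERK in the nucleus. Its levels were 21.0, 24.3 and 32.8 CPM in AML WT, 34.5 and 29.1 CPM in AML HET and 36.9, 29.4 and 25.1 CPM in AML KO mice. AML WT mouse 1 was lowest and AML KO mouse 1 highest, and the other mice of the 3 genotypes were interspersed. The AML KO minus AML WT difference was 0.23 ± 0.20 (95% interval -0.22 to 0.68, adjusted p 0.540 by edgeR with Benjamini-Hochberg adjustment). It had the opposite sign, -0.07, when AML WT mouse 1 and AML KO mouse 1 were both left out.

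Dusp2 (chr2:127336159-127338376) encodes an inducible nuclear phosphatase of MAP kinases that is best known from lymphoid and myeloid cells. It was at 10.2, 14.6 and 16.9 CPM in AML WT, 15.4 and 14.1 CPM in AML HET and 21.8, 15.0 and 16.6 CPM in AML KO mice. As for Dusp5, the lowest value was that of AML WT mouse 1 and the highest that of AML KO mouse 1. The difference of 0.35 ± 0.22 (95% interval -0.13 to 0.84) had an adjusted p of 0.381 in the same edgeR quasi-likelihood test. Without those 2 mice it was 0.00.

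Spry1 (chr3:37639947-37644598) and Spry2 (chr14:105891947-105896819) encode Sprouty proteins, membrane-associated inhibitors that receptor signaling induces and that restrain RAS and RAF activation. Spry1 was at 3.37, 3.45 and 3.25 CPM in AML WT, 2.56 and 3.25 CPM in AML HET and 4.19, 3.57 and 3.54 CPM in AML KO mice. Every AML KO mouse was above every mouse of the other genotypes, but by little: the mean was 3.76 ± 0.367 CPM (SD, n = 3) in AML KO and 3.35 ± 0.101 CPM (n = 3) in AML WT mice. The log2 difference of 0.17 ± 0.22 had an interval of -0.32 to 0.65 and an adjusted p of 0.684 (edgeR, Benjamini-Hochberg). Spry1 had the smallest spread within genotypes of the 9 genes, an SD of 0.14 on the log2 scale against a median of 0.24 over all genes. Spry2 was at 3.84, 3.54 and 2.88 CPM in AML WT, 3.16 and 3.47 CPM in AML HET and 3.27, 4.99 and 4.13 CPM in AML KO mice. Its groups overlapped through AML KO mouse 1, and the difference of 0.27 ± 0.24 (95% interval -0.27 to 0.81) had an adjusted p of 0.544 by the same edgeR test.

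Spred1 (chr2:117121374-117182279) encodes an inhibitor that brings the RAS-inactivating protein neurofibromin to the membrane. It was at 37.3, 18.3 and 23.0 CPM in AML WT, 24.1 and 14.1 CPM in AML HET and 13.3, 17.6 and 15.7 CPM in AML KO mice. All AML KO mice were below all AML WT mice, though AML KO mouse 2 and AML WT mouse 2 were close, and AML WT mouse 1 stood well above the rest. The log2 difference was -0.75 ± 0.29 (95% interval -1.39 to -0.11), and although p was under 0.05 before adjustment, the adjusted p was 0.239 (edgeR quasi-likelihood test, Benjamini-Hochberg). Spred1 had the largest spread within genotypes of the 9 genes, an SD of 0.43 on the log2 scale.

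Spred2 (chr11:19924375-20024026), which encodes the second inhibitor of this family, was at 19.0, 12.9 and 13.0 CPM in AML WT, 11.4 and 7.84 CPM in AML HET and 8.11, 11.3 and 9.49 CPM in AML KO mice. Both AML HET mice and all AML KO mice were below all AML WT mice, and the AML HET and AML KO mice covered the same range. The mean was 14.9 ± 3.54 CPM (SD, n = 3) in AML WT and 9.63 ± 1.59 CPM (n = 3) in AML KO mice. On the log2 scale AML KO minus AML WT was -0.64 ± 0.23 (95% interval -1.15 to -0.12), with an adjusted p of 0.225 in the edgeR test. The exact two-sided permutation p was 0.1 for Spred1 and for Spred2, the smallest that 3 against 3 mice can give.

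Etv5 (chr16:22381309-22439719) encodes an ETS transcription factor of the PEA3 group and is a target rather than an inhibitor of the pathway. It was at 6.24, 3.16 and 3.00 CPM in AML WT, 2.28 and 2.42 CPM in AML HET and 1.83, 2.73 and 1.80 CPM in AML KO mice, from raw counts of 56 to 254. AML WT mouse 1 had slightly more than the other AML WT mice together, and both the AML HET and the AML KO mice were below all 3. The log2 difference of -0.97 ± 0.34 (95% interval -1.73 to -0.21) was the most negative of the 9 genes, with an adjusted p of 0.218 (edgeR quasi-likelihood test, Benjamini-Hochberg).

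Phlda1 (chr10:111506286-111508645) encodes a pleckstrin homology-like protein that mitogens induce and that has been tied to growth and cell death. It was at 0.320, 0.632 and 0.459 CPM in AML WT, 0.561 and 0.669 CPM in AML HET and 1.31, 0.728 and 0.972 CPM in AML KO mice. All AML KO mice were above the mice of both other genotypes, but these values rest on 13 to 40 counts per mouse. The log2 difference of 1.10 ± 0.39 (95% interval 0.22 to 1.99) was the most positive of the 9 genes and had an adjusted p of 0.224 (edgeR quasi-likelihood test, Benjamini-Hochberg). Annotated antisense genes overlap Phlda1 (Gm28592), Spry1 (Gm42922) and Dusp5 (AC137853.2), and since no source states that counting used the strand, their reads cannot be told apart from those of the 3 genes.

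The AML HET mice addressed whether loss of 1 Gab2 allele was enough to shift these genes. None of the 9 passed the edgeR quasi-likelihood test between AML HET and AML WT mice after Benjamini-Hochberg adjustment, against 0.0225% of all genes (3 genes). Spred2 was the one gene with an unadjusted p under 0.05 (2.47% of all genes, 0.819% on the lower side). Its log2 difference was -0.64 ± 0.26 (95% interval -1.22 to -0.06), with an adjusted p of 0.990 in edgeR. Spred2 and Etv5 were the 2 genes with both AML HET mice outside the AML WT range, in each case below it, against 18.1% of all genes (8.61% lower). For Etv5 the AML HET minus AML WT difference was -0.82 ± 0.39 (-1.68 to 0.05), and for Spred1 it was -0.46 ± 0.32 (-1.18 to 0.26). The remaining 6 genes had log2 differences between -0.32 (Dusp6) and 0.40 (Phlda1), each with an interval that included 0. With 1 mouse left out, the number of the 9 genes with an unadjusted p under 0.05 in this comparison was 0 (without AML WT mouse 1, AML HET mouse 2 or AML KO mouse 3) to 3 (without AML WT mouse 3), and it was 2 without AML WT mouse 2.

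Between AML KO and AML HET mice, none of the 9 genes and none of all genes (0%) passed the edgeR test, and 0 of 9 against 5.86% of all genes had an unadjusted p under 0.05. DESeq2 and limma-voom called none of the 9 genes in any of the 3 comparisons either. The log2 differences of the SPRED genes and Etv5 were -0.29 ± 0.32 for Spred1 (95% interval -1.005 to 0.42), 0.00 ± 0.26 for Spred2 (-0.57 to 0.58) and -0.15 ± 0.38 for Etv5 (-1.01 to 0.71). The intervals of Spred1 and Etv5 include the size of their AML KO minus AML WT difference, and that of Spred2 does not. Spry1 and Phlda1 were higher in every AML KO than in every AML HET mouse (24.2% of all genes had no overlap, 13.2% on the higher side), with 0.37 ± 0.25 (-0.18 to 0.93) and 0.70 ± 0.44 (-0.29 to 1.69). The comparisons with AML WT and with AML HET share mice, so their values are set side by side and not counted as separate support.

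**Figure D3:**
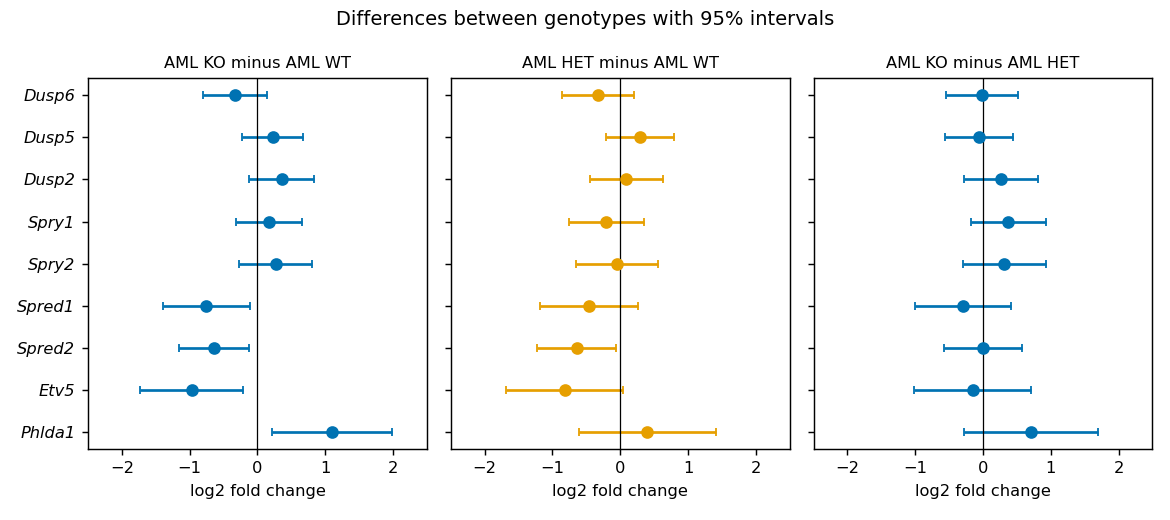
Log2 fold changes of the 9 genes for AML KO minus AML WT, AML HET minus AML WT and AML KO minus AML HET, with 95% intervals as bars. In the first comparison the intervals of Spred1, Spred2, Etv5 and Phlda1 exclude 0 before adjustment over 13305 genes, in the second that of Spred2, and in the third none.

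The values of the 4 genes with an unadjusted p under 0.05 depended on single mice. AML WT mouse 1 had the highest level of Spred1, Spred2 and Etv5 and the lowest of Dusp5, Dusp2 and Phlda1, and AML KO mouse 1 had the highest level of Dusp5, Dusp2, Spry1 and Phlda1 and the lowest of Spred1. These 2 libraries also stood apart over all genes by transcript length. Relative to the mean of the 8 mice, the quartile of genes with the longest transcripts had a median log2 deviation of 0.30 in AML WT mouse 1 and of -0.25 in AML KO mouse 1, and the quartile with the shortest transcripts had -0.30 and 0.29. In the other 6 mice these medians lay between -0.05 and 0.05. By GC content, the shifts were not limited to these 2 libraries. The quartile of genes with the highest GC content had medians of -0.17, 0.02 and -0.01 in AML WT mice 1 to 3. They were -0.11 and 0.04 in the AML HET mice and 0.12, 0.10 and 0.05 in the AML KO mice. The transcripts of Spred1 (6016 bases), Spred2 (4449) and Etv5 (3975) were the longest of the 9 genes, and those of Dusp5 (2473), Spry2 (2087), Phlda1 (1949) and Dusp2 (1617) the shortest. The GC content of the transcripts was highest for Dusp2 (59.2%) and Phlda1 (58.9%) and lowest for Spred1 (41.2%).

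With offsets that remove the trend of each mouse over GC content and transcript length, an alternative added after seeing the data, the AML KO minus AML WT differences were -0.48 for Spred1, -0.61 for Spred2, -0.99 for Etv5 and 0.86 for Phlda1 on the log2 scale, and the number of genes with an unadjusted p under 0.05 stayed at 4. Those of Dusp5, Dusp2 and Spry1 came to 0.09, 0.06 and 0.04. Without AML WT mouse 1, the differences were -0.42 for Spred1, -0.43 for Spred2, -0.55 for Etv5 and 0.87 for Phlda1, and none of the 9 genes had an unadjusted p under 0.05. Without AML KO mouse 1 there was 1 such gene, without AML KO mouse 3 there was also 1, and without both AML WT mouse 1 and AML KO mouse 1 there was none. In that last fit the 4 differences were -0.31, -0.31, -0.45 and 0.64, with the same signs as in all 8 mice. The part of transcript length and GC content in these differences was not tested further.

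**Figure D4:**
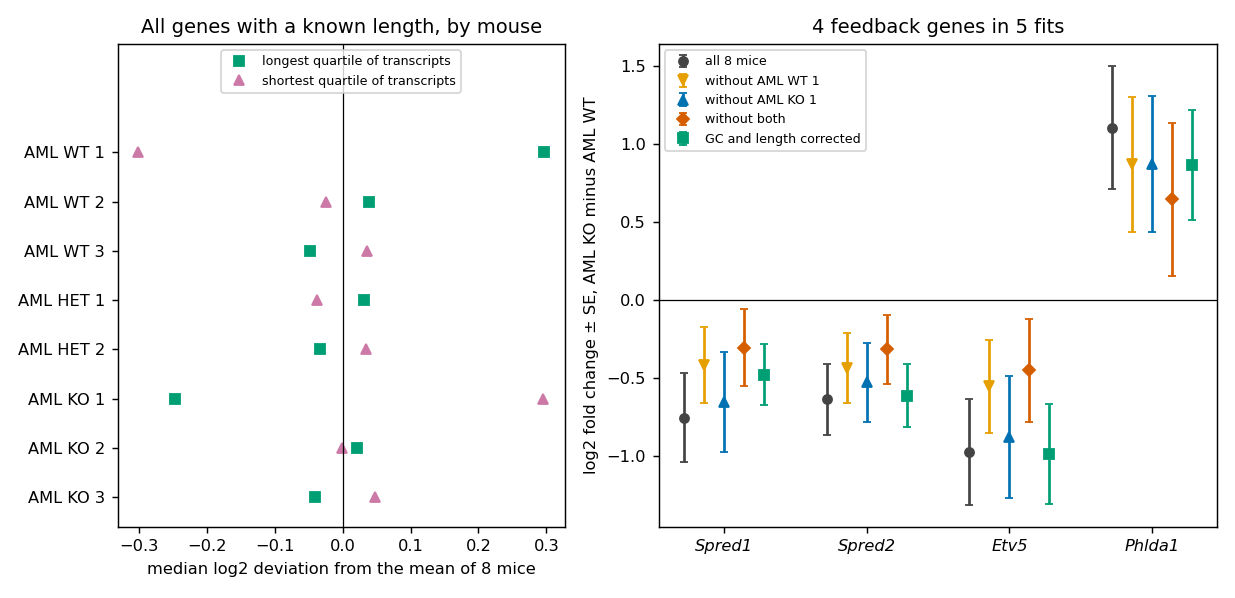
Left, median log2 deviation from the mean of 8 mice for the longest and the shortest quartile of transcripts, by mouse. Right, log2 fold change ± SE of AML KO minus AML WT for Spred1, Spred2, Etv5 and Phlda1 in 5 fits. AML WT mouse 1 (0.30 and -0.30) and AML KO mouse 1 (-0.25 and 0.29) stand apart in opposite directions, and leaving both out brings the 4 genes closer to 0 with the same signs.

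Other genes that ERK signaling induces were read from a list of 19, of which 11 were measured (Spry3, Spry4, Etv1, Etv4, Il17rd, Epha4, Egr3 and Fosl1 were not analysed here). Of these 11, 1 fell between AML WT and AML KO mice and none rose, where 2.09% of all genes passed the test (235 higher and 43 lower), with 8 negative values in all and a median log2 difference of -0.24. The gene that fell was Ccnd1, which encodes cyclin D1 and couples mitogenic signals to the cell cycle. It was at 17.5, 16.2 and 26.5 CPM in AML WT, 16.0 and 10.2 CPM in AML HET and 4.55, 9.28 and 5.54 CPM in AML KO mice. Ccnd1 is overlapped by LTO1, annotated on the opposite strand, so the limit on strand given for Phlda1 applies here too. The levels of the 3 genotypes did not overlap, and the log2 difference of -1.64 ± 0.31 (95% interval -2.34 to -0.94) had an adjusted p of 0.0294 (edgeR quasi-likelihood test, Benjamini-Hochberg). When each mouse was left out in turn, it ranged from -1.99 to -1.38 and passed the threshold in 3 of 8 fits, with adjusted p from 0.0170 to 0.141, and it lost the call without each AML WT mouse and without AML KO mouse 1 or 3.

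Spred3, the third SPRED gene, was at 4.06, 6.51 and 6.55 CPM in AML WT, 3.75 and 4.52 CPM in AML HET and 1.96, 2.62 and 3.30 CPM in AML KO mice. As for Spred1 and Spred2, the AML KO mice were all below the AML WT mice, but here AML WT mouse 1 was the lowest of its group. Spred3 is overlapped by Ggn, annotated on the opposite strand, so the same limit on strand applies. The log2 difference of -1.11 ± 0.28 had an adjusted p of 0.0924 in edgeR and of 0.00907 in DESeq2. Egr1, an immediate early transcription factor gene, was at 2.56, 2.37 and 5.27 CPM in AML WT, 2.87 and 2.20 CPM in AML HET and 1.08, 1.97 and 1.24 CPM in AML KO mice. Its groups did not overlap between AML WT and AML KO, with a difference of -1.25 ± 0.39, an adjusted p of 0.167 in edgeR and 0.0499 in DESeq2. The Egr1 difference was -0.79 without AML WT mouse 3, which had the highest level, and ranged from -1.55 to -0.79 with each mouse left out in turn. Of this list, 4 of 11 genes had an unadjusted p under 0.05, against 17.7% of all genes, and the fourth was the immediate early gene Ier2, named after its values were seen, on the higher side with 0.51 ± 0.19 and an adjusted p of 0.228 (edgeR).

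All 28 listed genes of the RAS-ERK cascade itself, from adaptors to transcription factors, were measured. The one of the 28 that passed the test between AML KO and AML WT mice was Gab2. It is the gene disrupted by design, so its call is not a result about the cascade. Its log2 difference was -0.87 ± 0.18 (95% interval -1.28 to -0.47, adjusted p 0.0420 by edgeR with Benjamini-Hochberg adjustment). Leaving out each mouse in turn moved this value between -0.99 and -0.68, and the adjusted p stayed under 0.05 in 2 of the 8 fits, those without AML WT mouse 3 and without AML KO mouse 2. The other 27 genes had no call, with 12 positive and 16 negative values over the 28 genes and a median of -0.10, so the cascade genes had no common direction. Mapk3, which encodes the kinase ERK1, was at 183, 228 and 206 CPM in AML WT, 205 and 260 CPM in AML HET and 303, 263 and 250 CPM in AML KO mice. AML KO was above AML WT in every mouse, with a log2 difference of 0.40 ± 0.14 (adjusted p 0.219, edgeR), which was 0.15 with the GC content and length correction. Rps6ka3, the gene of the ERK-activated kinase RSK2, was lower, at 137, 95.2 and 87.4 CPM in AML WT, 98.8 and 78.7 CPM in AML HET and 54.9, 83.7 and 75.4 CPM in AML KO mice. This difference of -0.58 ± 0.21 (adjusted p 0.226, edgeR) came to -0.28 with the correction.

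**Figure D5:**
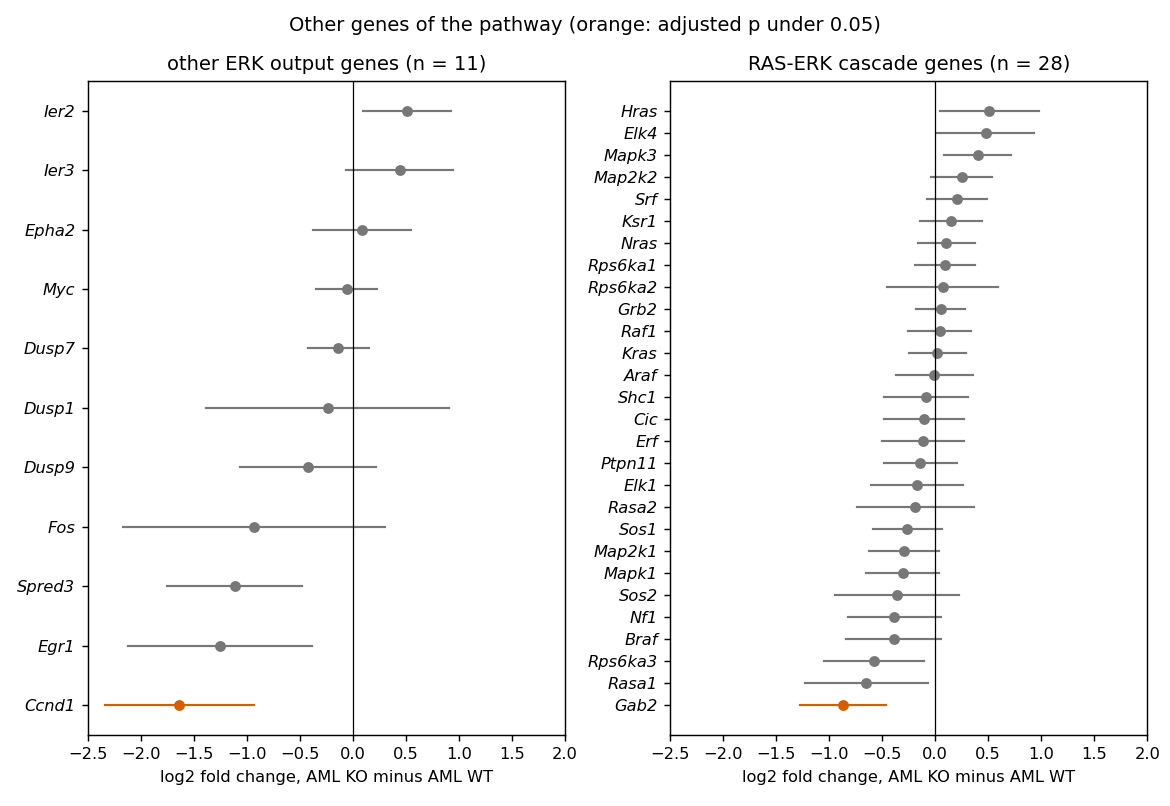
Log2 fold changes, AML KO minus AML WT, of 11 other ERK output genes and 28 RAS-ERK cascade genes with 95% intervals, ordered by value, with genes past an adjusted p of 0.05 in orange. Ccnd1 at -1.64 and Gab2, the gene disrupted by design, at -0.87 are the genes past the threshold, both lower in AML KO.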

How the data were processed

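BM RNA was sequenced by the authors on an Illumina HiSeq4000. The authors deposited raw counts per gene, without normalization, for 8 mice (AML WT, n = 3; AML HET, n = 2; AML KO, n = 3). The submitters' processing notes name Trimmomatic 0.36, STAR 2.5.2b and mm10. The counting tool, its annotation and its use of strand are not given in the sources used here. The table held 13305 genes, of which 13266 had a symbol in GENCODE M21 (GRCm38), and the lowest gene total was 106 counts.

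The analysis used edgeR 4.0.16 (R 4.3.3): TMM normalization, filterByExpr (which removed no gene) and the robust quasi-likelihood test on all 8 mice with the Gab2 genotype as the only term. P-values were adjusted with the Benjamini-Hochberg method over 13305 genes, with a threshold of 0.05. CPM use TMM library sizes, and RPKM divide CPM by the merged exon length. Intervals are 95% intervals from the fit. No gene described here had a count of 0 in any mouse. Single genes were also compared with exact two-sided permutation tests on log2 CPM with a prior count of 2. Nothing in the labels but the mouse number separates the samples of a group, so p-values measure the spread between these mice.

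The feedback genes and the other gene lists were chosen with earlier results of these data known. All measured feedback genes are reported, with Gab2 and the 3 genes with the smallest p of each of the other 2 pathway lists. The alternatives were DESeq2 1.42.0, limma-voom (limma 3.58.1), upper-quartile and DESeq2 size factors, no filter or at least 10 counts in every mouse, library sizes without marker genes and the 10 most abundant genes, only the 2 genotypes compared, a replicate block and each mouse left out. Offsets for GC content and transcript length, and leaving out 2 mice together, were added after seeing the data. The test script was checked on simulated counts. Plots were drawn with matplotlib 3.10.9 (Python 3.11.15, pandas 2.3.3).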

Additional observations from a re-analysis of the deposited data

How the results depend on the processing

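None of the 9 feedback genes was called in any comparison under any alternative, each mouse left out included (0 to 0 called), and the smallest adjusted p of any of them was 0.107 (Etv5, DESeq2, AML KO versus AML WT). Across the mice left out in turn, the AML KO minus AML WT difference ranged from -0.49 to -0.13 for Dusp6, 0.07 to 0.43 for Dusp5, 0.16 to 0.52 for Dusp2, 0.08 to 0.21 for Spry1, 0.11 to 0.41 for Spry2, -0.96 to -0.42 for Spred1, -0.76 to -0.43 for Spred2, -1.19 to -0.55 for Etv5 and 0.87 to 1.37 for Phlda1. Of these 9, only Dusp5 changed sign in a setting, to -0.068 without AML WT mouse 1 and AML KO mouse 1, and the cause was not tested. Phlda1 rests on 13 to 40 counts per mouse. The shares of counting error and of differences between mice in the spread were not separated.

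Between AML KO and AML WT mice, the 278 called genes became 730 with DESeq2 (68.9% of them higher, against 84.5%), 19 with the replicate block and 134 without AML WT mouse 1 and AML KO mouse 1, and 40 (without AML WT mouse 2) to 370 (without AML KO mouse 2) with 1 mouse left out. The 2 calls among other ERK output and cascade genes were Ccnd1 and the disrupted gene Gab2. Their number became 4 with DESeq2, 1 with only the 2 genotypes compared, 0 with the block and 0 without the 2 mice. It was 0 to 2 with 1 AML WT or AML KO mouse left out. Between AML HET and AML WT mice, the 3 called genes became 59 with DESeq2, 1 with limma-voom, 5 with only the 2 genotypes and 0 with the block, and 1 to 5 with 1 mouse left out. Between AML KO and AML HET mice, 0 became 77 with DESeq2 and 3 with only the 2 genotypes, and 0 to 4 with 1 mouse left out. The causes of these shifts were not tested. Where 1 AML HET mouse remained, it was assumed to vary like the other groups.

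The replicate numbers were not taken to pair the samples, since not every pair correlated above 0.1: deviations of mice with the same number correlated at -0.51, -0.11 and -0.13 between AML WT and AML KO, at 0.08 and 0.29 between AML WT and AML HET, and at -0.14 and -0.04 between AML HET and AML KO. Between AML WT and AML HET, each pair was the best match, and in none of the other 5 pairs was it. With the number as a block, 0 feedback genes were called, as without it.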
